A study of Mus musculus with 4 samples.

Results

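The interleukin-33 (IL-33) receptor and the genes that carry its signal were followed in Treg cells (regulatory T cells, which carry the factor FOXP3 and hold immune responses in check) of aged mice. The 9 genes, picked by name, are the receptor gene Il1rl1, the co-receptor gene Il1rap, the ligand gene Il33, and the signalling genes Myd88, Irak1, Irak2, Irak4, Traf6 and Map3k7. All 9 were found among the 23284 gene symbols counted, and all 9 were among the 16488 genes that passed the filter on low counts. There were 4 RNA sequencing libraries of sorted Treg cells from C57BL/6 mice aged 12 to 13 months. The source was either epididymal fat (eWAT, a white visceral depot) or spleen as the control tissue. The genotype was wild type (WT) or PPARg-2KR (2KR below), an allele of the nuclear receptor PPARG that the labels do not describe further. Each combination of tissue and genotype had 1 library. No treatment is labelled, and whether a library holds 1 mouse or several pooled mice is not stated.

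IL-33 is a cytokine of the interleukin-1 family that stromal and epithelial cells hold in the nucleus and release on damage. It binds ST2, the product of Il1rl1, which then pairs with the accessory chain encoded by Il1rap. The adaptor MYD88 joins the receptor tails and gathers the kinases IRAK4, IRAK1 and IRAK2, which act through the ubiquitin ligase TRAF6 on TAK1, the kinase encoded by Map3k7, to switch on NF-kB and MAP kinases. ST2 is known as a marker of the Treg cells of visceral fat, which expand in response to IL-33. A soluble form of ST2, made from the same gene, binds IL-33 without signalling.

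Read counts summed to between 8315569 (2KR eWAT) and 15993889 (2KR spleen) per library. As a check of the cell label, Foxp3 stood at 1409 and 1299 CPM (read counts scaled to library depth with TMM factors) in the WT and 2KR spleen libraries. It stood at 1162 and 804.3 CPM in the WT and 2KR eWAT libraries, and was thus abundant in all 4. Pparg stood at 5.74, 2.89, 129.8 and 64.2 CPM in spleen of WT and 2KR and then in eWAT of WT and 2KR. The RNA level of Pparg does not check the genotype labels. Summed markers of fibroblasts and mesothelium, macrophages, dendritic cells and adipocytes were higher in fat, and those of B cells in 2KR only. Summed over 10 fibroblast and mesothelial markers the level was 8.0, 4.33, 555.5 and 236.2 CPM in the same order, over 9 macrophage markers 133.8, 90.8, 1280 and 1595 CPM, and over 7 dendritic cell markers 124.4, 87.4, 2329 and 4058 CPM. Single genes held most of the last sums in fat, Lyz2 with 1017 and 1215 CPM (macrophage) and H2-Ab1 with 1992 and 3534 CPM (dendritic cell) in WT and 2KR. The 5 B cell markers summed to 88.6, 76.8, 81.1 and 138.7 CPM and the 5 adipocyte markers to 2.83, 1.44, 11.3 and 19.5 CPM. In such bulk libraries fewer cells of a type and less RNA per cell cannot be told apart. The p-values below measure only the spread between these libraries, and the spread within a tissue includes the genotype difference.

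Il1rl1 was weakly expressed in spleen and strongly expressed in fat, and its level in fat was far lower in the 2KR library. The gene lies on chromosome 1 (mm9, chr1:40496494-40522259). It had 204 reads in WT spleen, 412 in 2KR spleen, then 15474 in WT eWAT and 2672 in 2KR eWAT, or 16.5, 27.0, 1431 and 278.5 CPM. Both fat libraries lay above both spleen libraries. In the deposited FPKM (fragments scaled for transcript length and depth, a level per length) the order was WT eWAT at 287.6, 2KR eWAT at 69.6, 2KR spleen at 5.29 and WT spleen at 2.93. None of the authors' 95% intervals touched its neighbour in that order (282.8 to 292.4, 66.7 to 72.4, 4.75 to 5.83 and 2.48 to 3.37), and these intervals hold no spread between animals. By FPKM, Il1rl1 ranked 320th of 22987 gene loci in WT eWAT and 1517th in 2KR eWAT, against 9398th and 8317th in WT and 2KR spleen.

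Between tissues, Il1rl1 was higher in eWAT by 5.29 on the log2 scale (SE 0.59, edgeR quasi-likelihood test, adjusted p = 1.32e-05). The fold between tissues was 85.9 in WT (log2 6.43, 95% counting interval 6.24 to 6.65) and 10.2 in 2KR (log2 3.36, 3.22 to 3.52). Without the WT eWAT library the tissue difference was 3.56 on the log2 scale, and with any 1 of the 4 libraries left out it lay between 3.56 and 5.95. A tissue left with 1 library is assumed to vary like the other one, so those fits say nothing of stability. Of the 9 genes, 2 were higher in eWAT (Il1rl1 and Il33), where 33.7% of all genes tested were higher. Map3k7 alone was lower, where 23.2% of all genes tested were lower, and 6 genes did not pass. The median tissue log2 fold change was −0.03 over the 9 genes and 0.11 over all genes tested.

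**Figure D1:**
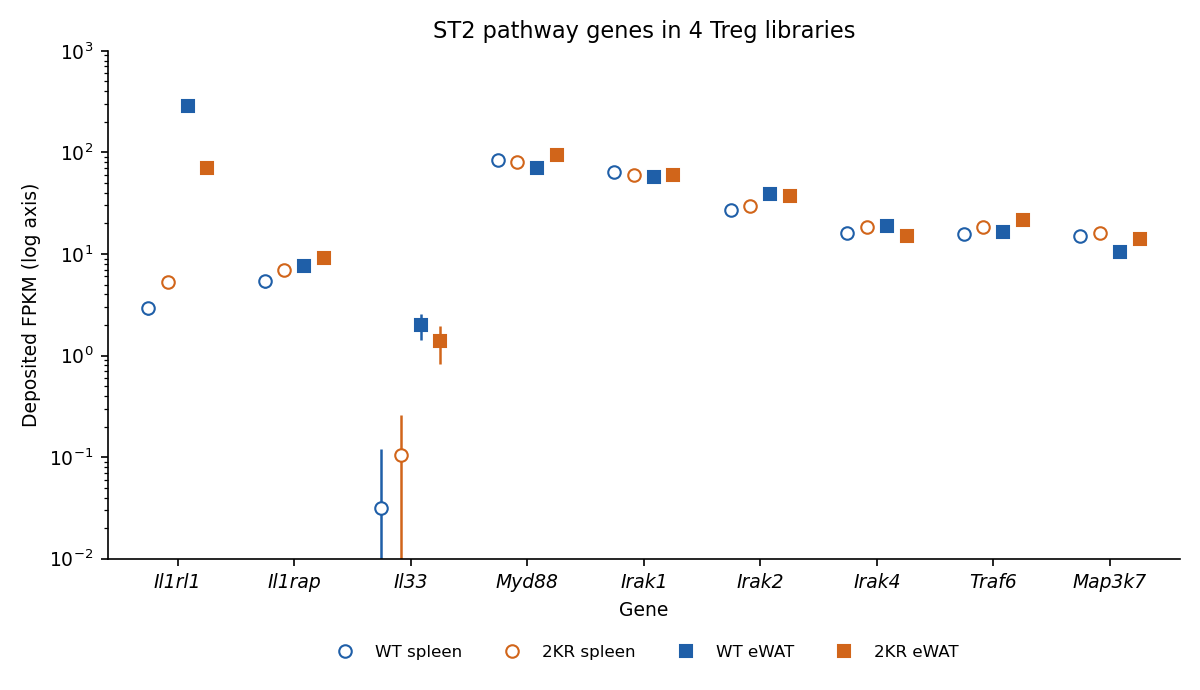
Deposited FPKM (log axis) of the 9 genes in the 4 libraries, spleen as open circles and eWAT as filled squares, WT in blue and 2KR in orange. Vertical lines are the authors' 95% intervals, which reach 0 for Il33 in spleen. Il1rl1 spans 2.93 to 287.6 FPKM and Il33 spans 0.0313 to 1.99, while the other 7 genes each span 1.7-fold or less.

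Within fat, the Il1rl1 level in 2KR was 0.195 of that in WT, a log2 ratio of −2.36 with a 95% exact interval of −2.42 to −2.30. Within spleen the order was the opposite, with 2KR at 1.63 times WT and a log2 ratio of 0.71 (0.47 to 0.96). Of the 9 genes, Il1rl1 and Irak4 had ratios of opposite sign in the tissues with both intervals excluding 0, as did 13.8% of the 12364 genes that reached 5 CPM in a library. For Il1rl1 the ratio in fat minus the ratio in spleen was −3.07 (−3.33 to −2.82). With 1 library per group these ratios have no test, and their intervals cover counting error only. Among those 12364 genes, Il1rl1 had the 15th lowest ratio in fat and the 261st highest in spleen. Of the 9 genes, Il1rl1 alone lay at −1 or lower in fat, where 2.32% of all genes did, and none lay at 1 or higher, where 5.52% did. In spleen none of the 9 genes lay at −1 or lower or at 1 or higher, against 5.81% and 1.04% of all genes.

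The levels of Foxp3 and of the T cell markers (3792 CPM summed in WT and 2969 CPM in 2KR) also differed between the fat libraries. Relative to Foxp3, the libraries held 1.17 (WT) and 2.08 (2KR) Il1rl1 reads per 100 Foxp3 reads in spleen and 123 (WT) and 34.6 (2KR) in eWAT. Per 100 reads of the 7 T cell markers there were 0.222, 0.411, 37.7 and 9.38 Il1rl1 reads. On either scale the order of the 4 libraries was the same as in CPM. The log2 ratio in fat was −1.83 per Foxp3 read and −2.10 with counts scaled by library total alone.

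Type 2 innate lymphoid cells and mast cells are other known sources of Il1rl1. The 10 markers listed for innate lymphoid cells include Il2ra, which Treg cells share. The other 9 summed to 13.2, 20.3, 202.3 and 118.5 CPM in spleen of WT and 2KR and then in eWAT of WT and 2KR, a sum trimmed after its values were seen. Nmur1, the neuromedin receptor of these cells, stood at 0.889, 0.656, 30.1 and 8.44 CPM, with a genotype log2 ratio of −1.82 in fat. Calca and Il9r were also lower in 2KR than in WT fat. Calca stood at 45.0 CPM in WT and 16.8 in 2KR (log2 −1.42), and Il9r at 63.3 and 28.8 CPM (log2 −1.13). So did Il5 (log2 −0.71), Il13 (−0.48), Arg1 (−0.26) and Hs3st1 (−0.16) lie lower, with intervals including 0 for Il13, Arg1 and Hs3st1. Of the list, only Il17rb and Kit had the opposite order in fat. Il17rb, a chain of the IL-25 receptor, had 6.66 CPM in the WT fat library and 12.9 CPM in the 2KR one (log2 0.94, 0.53 to 1.40), and Kit, which mast cells also express, had 8.69 and 17.3 CPM (log2 0.98, 0.62 to 1.37). Il13 had 0 reads in both spleen libraries and 7 and 4 reads in WT and 2KR eWAT. The 11 mast cell markers summed to 11.8, 10.5, 30.3 and 110.4 CPM, and the mast cell protease gene Mcpt4 was at 0 reads in all but 2KR eWAT. The part of either cell type in the Il1rl1 level was not tested.

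The files list 2 transcripts of Il1rl1, and they part inside the coding sequence. In the GENCODE annotation both share 985 coding bases. The soluble transcript then reads straight on past the exon's end and stops after 8 codons of its own, for 337 codons in all. The membrane transcript splices to the next exon and goes on for 238 more codons, which hold the membrane span and the signalling tail, for 567 in all. The stretch around the parting point is shown because it is what tells the receptor from its decoy. It was read from GRCm38, plus strand, with the last 30 shared bases in lower case and 29 bases of each form's own sequence in capitals. The soluble stretch lies at chr1:40446646-40446704, and the membrane form's own part begins after the intron at chr1:40450075-40450103.
soluble Il1rl1: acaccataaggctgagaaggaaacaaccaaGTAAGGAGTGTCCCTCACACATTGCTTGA
membrane Il1rl1: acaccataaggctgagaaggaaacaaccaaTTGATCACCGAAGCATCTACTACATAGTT
The soluble form's capitals end in its stop codon.

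The membrane transcript was the main form in every library. Its deposited FPKM was 2.51 in WT spleen, 4.72 in 2KR spleen, then 251.4 in WT eWAT and 54.1 in 2KR eWAT. The soluble transcript stood at 0.412, 0.567, 36.1 and 15.5 FPKM in the same order. Both forms were thus highest in WT eWAT, and the membrane form was lowest in WT spleen. For the soluble form the authors' intervals in spleen overlapped, at 0.168 to 0.656 FPKM in WT and 0.3 to 0.833 FPKM in 2KR. In fat the membrane form was 4.65-fold lower in 2KR than in WT and the soluble form 2.33-fold lower. In spleen 2KR was above WT by a log2 ratio of 0.91 for the membrane form and 0.46 for the soluble form.

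The soluble share of the summed FPKM was accordingly highest in 2KR eWAT. It was 14.1% in WT spleen, 10.7% in 2KR spleen, then 12.6% in WT eWAT and 22.3% in 2KR eWAT. With the soluble form at the bounds of the authors' interval, the share ran from 11.8% to 13.3% in WT eWAT and from 20.1% to 24.4% in 2KR eWAT, and these ranges do not overlap. In spleen the ranges were 6.25% to 20.7% in WT and 5.98% to 15.0% in 2KR, and they overlap. Weighted by transcript length (3002 bases for the soluble and 5071 bases for the membrane form), the shares in fat were 7.84% in WT and 14.5% in 2KR. With 1 library per group the share has no replicate check. The level of soluble transcript in 2KR eWAT was still 27.4 times that in 2KR spleen, and the membrane form was 11.4 times higher.

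**Figure D2:**
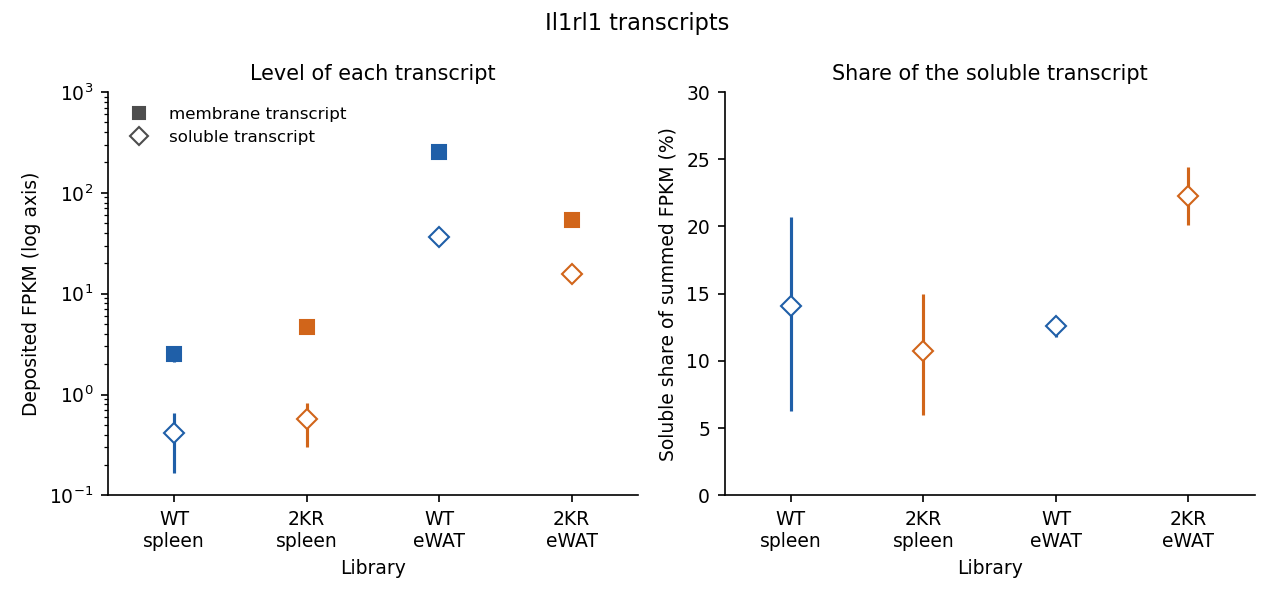
Left, deposited FPKM (log axis) of the membrane transcript (filled squares) and the soluble transcript (open diamonds) of Il1rl1 in each library, WT in blue and 2KR in orange. Right, the soluble share of the summed FPKM in percent, with lines from the share at the lower to that at the upper bound of the authors' 95% interval of the soluble transcript. The share is 22.3% in 2KR eWAT and between 10.7% and 14.1% in the other 3 libraries.

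The promoters of Il1rl1 are shown because its level differed most of the 9 genes in both comparisons, and because GATA factors and PPARG are known to act on fat Treg genes. RefSeq lists 2 start sites in GRCm38.p6, and the 250 bases before each are given, 5′ to 3′ on the plus strand, with matches to the GATA core (AGATAA or TGATAA, either strand) in capitals. The upstream window is chr1:40429320-40429569 and the downstream window is chr1:40439379-40439628. The soluble transcript spans chr1:40496494-40505207 in mm9, too short to reach from its stop codon (chr1:40446704 in GRCm38) back to the upstream start. The membrane transcript begins further downstream, at chr1:40497473 in mm9. By these listed starts the upstream window adjoins neither transcript, and the membrane transcript's listed start lies downstream of the soluble one. Which start sites were used was not measured, so neither window is tied to a level given above.
upstream Il1rl1 promoter: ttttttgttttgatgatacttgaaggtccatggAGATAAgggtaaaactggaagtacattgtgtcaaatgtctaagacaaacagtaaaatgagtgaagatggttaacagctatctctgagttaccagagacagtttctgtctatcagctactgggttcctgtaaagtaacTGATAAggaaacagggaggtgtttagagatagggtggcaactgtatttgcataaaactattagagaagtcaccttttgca
downstream Il1rl1 promoter: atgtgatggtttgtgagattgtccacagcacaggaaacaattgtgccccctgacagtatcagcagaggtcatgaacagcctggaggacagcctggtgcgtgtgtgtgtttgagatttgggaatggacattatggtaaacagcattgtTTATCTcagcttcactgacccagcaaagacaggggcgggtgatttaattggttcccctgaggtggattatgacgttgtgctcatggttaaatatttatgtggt
The upstream window holds AGATAA at 217 and TGATAA at 80 bases before the start. The downstream window holds TTATCT, the reverse complement of AGATAA, at 103 bases before the start. A GATA core occurs in 16.6% of all 32851 such windows. The GC content was 37.6% in the upstream and 46.4% in the downstream window, and that share was not matched for GC content.

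The downstream Il1rl1 window also holds AGGTCA, the core bound by PPAR and RXR receptors, at 185 bases before the start. That core occurs in 14.0% of windows. A direct repeat of it with 1 base between the copies, the full PPAR element, occurs in 0.0335% of windows and in none of the 9 genes' windows. The AP-1 core TGANTCA, present in 6.75% of windows, was also found in none of them. Beyond Il1rl1, the letters AGGTCA were found at 214 bases before the start in Irak2, their reverse complement TGACCT at 8 bases before the start in Irak4, and GAAATTCCC, a reverse match of the NF-kB core GGGANTTTC (0.941% of windows), at 91 bases before the start in Map3k7. The motifs do not overlap one another. These are matches of letters in short windows, and no binding was measured.

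Il1rap encodes the accessory chain that ST2 shares with the receptors for IL-1 and IL-36 (mm9, chr16:26581791-26725233). It had 280 reads in WT spleen, 469 in 2KR spleen, then 374 in WT eWAT and 334 in 2KR eWAT, or 22.6, 30.8, 34.6 and 34.8 CPM. WT spleen was lowest and the other 3 libraries lay close together. The tissue log2 fold change of 0.38 (SE 0.22) did not pass (edgeR adjusted p = 0.163). Between genotypes the log2 ratio of Il1rap was 0.44 in spleen (0.23 to 0.66) and 0.01 in fat (−0.21 to 0.23).

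Per length, the receptor and its partner changed places. Il1rl1 FPKM was below Il1rap in spleen (2.93 against 5.37 in WT and 5.29 against 6.99 in 2KR). In fat it was above, at 287.6 against 7.63 in WT and 69.6 against 9.11 in 2KR. Il1rap was the member with the second lowest FPKM in both fat libraries, above Il33 only. Of its 4 transcripts, the one for a protein of 570 codons held 73.2%, 84.5%, 84.6% and 84.3% of the FPKM in spleen of WT and 2KR and then in eWAT of WT and 2KR, and the one for a shorter protein of 360 codons held 26.3%, 15.5%, 12.9% and 7.48%.

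Il33, the ligand gene, was barely detected in spleen and weak in fat (mm9, chr19:29999604-30035205). It had 3 reads in WT spleen, 4 in 2KR spleen, then 56 in WT eWAT and 35 in 2KR eWAT, or 0.242, 0.262, 5.18 and 3.65 CPM. Both fat libraries lay above both spleen libraries, and the tissue log2 fold change was 4.07 (SE 0.77, edgeR adjusted p = 0.000891). In WT the log2 ratio of eWAT over spleen was 3.71, with a counting interval of 2.80 to 6.74 that reflects the 3 spleen reads. In fat the genotype log2 ratio was −0.49 (−1.16 to 0.13). Il33 had the lowest FPKM of the 9 genes in every library, between 0.0313 and 1.99.

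Markers of cells known to make IL-33, apart from Pecam1, were also higher in fat than in spleen. All 10 fibroblast and mesothelial markers were higher in eWAT, with the sums given above and the matrix proteoglycan gene Dcn at 0.404, 0.984, 349.1 and 142.9 CPM. The 7 endothelial markers other than Pecam1, which lymphocytes also express, summed to 10, 3.35, 86.0 and 149.4 CPM, a sum trimmed after its values were seen. Pecam1 itself was lower in eWAT, at 172.0, 190.8, 63.5 and 112.7 CPM. With Pecam1 the sum was 182.0, 194.2, 149.5 and 262.1 CPM, which in WT was lower in fat than in spleen. Fibroblast markers were higher in WT than in 2KR fat, and endothelial markers were lower. The counting interval of Il33 between the fat libraries included 0. Per 100 Foxp3 reads there were 0.446 Il33 reads in WT and 0.454 in 2KR fat. The part of such cells in the Il33 reads was not tested.

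Myd88, the adaptor that ST2 shares with other signalling receptors of the family, had nearly level counts (mm9, chr9:119245106-119249158). It stood at 156.9, 148.9, 129.0 and 140.8 CPM in spleen of WT and 2KR and then in eWAT of WT and 2KR, and the tissue log2 fold change of −0.18 did not pass (edgeR adjusted p = 0.43). Per length Myd88 had the highest FPKM of the 9 genes in 3 libraries (83.3 and 80.4 in WT and 2KR spleen and 94.8 in 2KR eWAT). In WT eWAT it came after Il1rl1, at 70.1. Between genotypes the log2 ratio was 0.13 in fat (0.02 to 0.24) and −0.08 in spleen (−0.16 to 0.01).

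The kinases of the IRAK group differed little between tissues. Irak4, the first kinase of the complex (mm9, chr15:94374091-94398747), stood at 45.9, 52.6, 53.1 and 35.5 CPM. WT eWAT was highest and 2KR eWAT lowest, so the tissues overlapped, and the log2 fold change of −0.15 did not pass (edgeR adjusted p = 0.574). The genotype log2 ratio of Irak4 was −0.58 in fat (−0.78 to −0.38) and 0.20 in spleen (0.04 to 0.35), the same pair of signs as in Il1rl1 at a smaller size. Counted per Foxp3 read the ratio in fat was −0.05.

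Irak1, the kinase that IRAK4 phosphorylates (mm9, chrX:71259253-71269260), stood at 232.9, 219.6, 192.8 and 172.9 CPM. Both fat libraries were below both spleen libraries, and the log2 fold change of −0.31 did not pass (edgeR adjusted p = 0.196). Its genotype log2 ratio in fat was −0.16 (−0.25 to −0.06) and turned to 0.10 with counts scaled by library total alone. Irak2, a kinase of the sustained response (mm9, chr6:113588461-113645020), stood at 88.9, 94.0, 120.9 and 97.4 CPM. Both fat libraries lay above both spleen libraries, and the log2 fold change of 0.25 did not pass (edgeR adjusted p = 0.266). With counts scaled by library total alone it was 0.41 and passed (adjusted p = 0.041). Irak2 was lower in 2KR than in WT fat, with a log2 ratio of −0.31 (−0.43 to −0.19), and stood at 0.08 in spleen (−0.03 to 0.20). Per Foxp3 read the ratio in fat was 0.22.

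Traf6, the ubiquitin ligase below the kinases (mm9, chr2:101518597-101541131), stood at 94.1, 108.6, 95.3 and 102.8 CPM. In both tissues 2KR was above WT, with log2 ratios of 0.11 in fat (−0.02 to 0.24) and 0.21 in spleen (0.10 to 0.32), and the tissue log2 fold change was −0.03 (edgeR adjusted p = 0.885). Map3k7, which encodes the kinase TAK1 (mm9, chr4:32051082-32110441), stood at 90.5, 95.2, 61.7 and 66.9 CPM. Both fat libraries were below both spleen libraries, and Map3k7 was lower in eWAT by a log2 fold change of −0.53 (SE 0.18, edgeR adjusted p = 0.0244). The call was lost without either spleen library (log2 −0.61, adjusted p = 0.156 without WT spleen and log2 −0.55, adjusted p = 0.22 without 2KR spleen) and with counts scaled by library total alone (log2 −0.35, adjusted p = 0.109). Its genotype log2 ratios were 0.12 in fat (−0.04 to 0.28) and 0.07 in spleen (−0.04 to 0.19).

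The 2 listed transcripts of Map3k7, for proteins of 579 and 606 codons, had unlike shares in the libraries. The shorter form held 49.8%, 59.1% and 57.8% of the FPKM in WT spleen, 2KR spleen and WT eWAT. In 2KR eWAT it was assigned 100% and the longer form 0.000403%. An estimate so close to 0 can be a failed split between near-identical forms, and this was not tested. The main transcript of Irak1, for 711 codons, held 65.8%, 66.9%, 53.8% and 68.8% in the usual order. Myd88, Irak4 and Traf6 have 1 listed transcript each.

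Set side by side, the genotype ratios of Il1rl1 were unlike those of the genes around it in the pathway. In fat the counting interval lay below 0 for Il1rl1, Irak1, Irak2 and Irak4 and above 0 for Myd88. In spleen it lay above 0 for Il1rl1, Il1rap, Irak4 and Traf6 and below 0 for Irak1. The share of all genes with such an interval in 1 tissue was not computed, so this is a description only. The median ratio of the 9 genes was −0.16 in fat and 0.08 in spleen, and that of all genes at 5 CPM or more was −0.07 in both tissues. Scaling by library total alone moved the median of all genes in fat by 0.25 and the median tissue difference by 0.16. It turned Irak1 in fat from −0.16 to 0.10. A genotype shift shared by the tissues was called for 11 of the 16488 genes by edgeR (0.0667%) and for none of the 9. Il1rl1 had a common log2 fold change of −0.90 (SE 0.46, unadjusted p = 0.0616). By edgeR 777 genes and none of the 9 had an unadjusted p under 0.05, and DESeq2 called 3 genes and none of the 9.

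**Figure D3:**
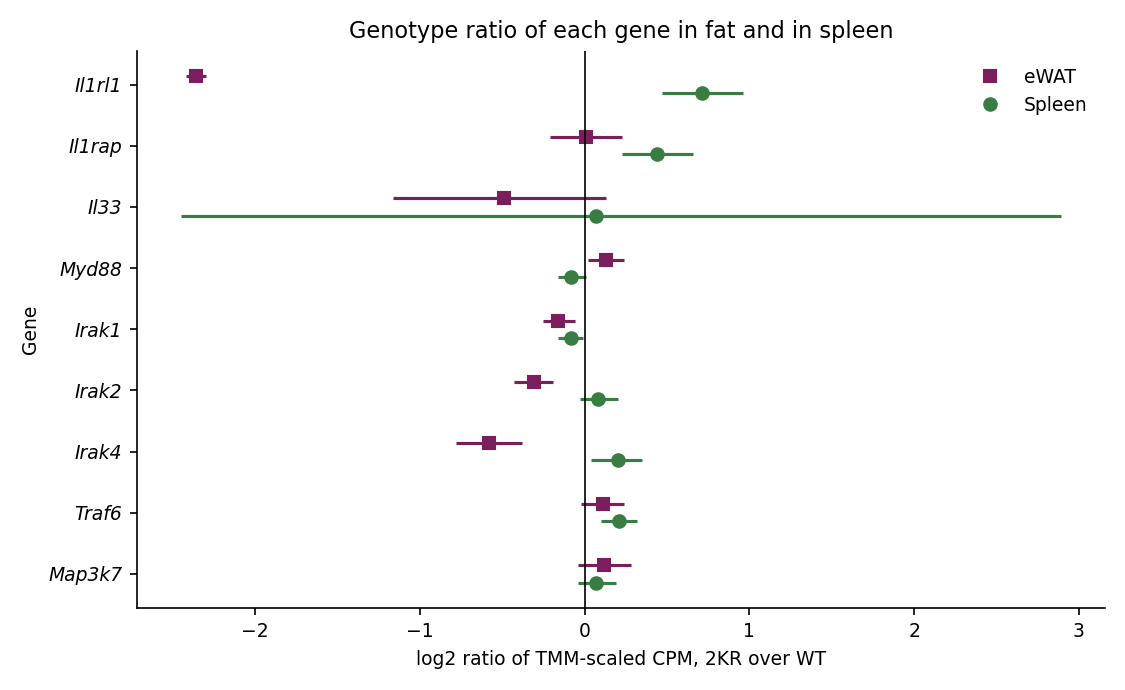
Log2 ratio of TMM-scaled CPM, 2KR over WT, for the 9 genes in eWAT (purple squares) and spleen (green circles), with exact 95% intervals of counting error as horizontal lines. Il1rl1 lies at −2.36 in eWAT and 0.71 in spleen, and all other genes lie between −0.58 and 0.44. Il33 in spleen rests on 3 and 4 reads.

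Il1rl1 sits in a cluster of receptor genes of its own family on chromosome 1. In order along mm9 they are Il1r2, Il1r1, Il1rl2, Il1rl1, Il18r1, Il18rap and Slc9a4. Il18r1, a chain of the IL-18 receptor, begins 137 bases after the end of Il1rl1. Il18r1 stood at 30.7, 34.8, 24.0 and 52.3 CPM in spleen of WT and 2KR and then in eWAT of WT and 2KR. It was lowest in WT eWAT, where Il1rl1 was highest, and its genotype log2 ratio in fat was 1.12 (0.90 to 1.34). Its tissue log2 fold change of 0.22 did not pass (edgeR adjusted p = 0.538). Il18rap, the other chain, stood at 12.9, 12.7, 57.0 and 36.2 CPM and was higher in eWAT by 1.87 (adjusted p = 7.07e-05). Like Il1rl1, it was highest in WT eWAT and next in 2KR eWAT, with a genotype log2 ratio in fat of −0.65 (−0.85 to −0.46).

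On the other side of Il1rl1, Il1r2, the decoy receptor for IL-1, ran against it. Il1r2 stood at 417.6, 224.8, 31.1 and 42.8 CPM, and was lower in fat by a log2 fold change of −3.12 (SE 0.29, edgeR adjusted p = 2.53e-06). Il1r1, the signalling receptor for IL-1, stood at 5.17, 1.71, 16.1 and 14.9 CPM and was higher in eWAT by 2.19 (adjusted p = 0.002). Il1rl2, the receptor for IL-36, stood at 0.404, 1.71, 3.88 and 5.63 CPM and was higher by 2.13 (adjusted p = 0.0214). In fat the genotype log2 ratio was 0.46 for Il1r2, −0.11 for Il1r1 and 0.52 for Il1rl2.

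**Figure D4:**
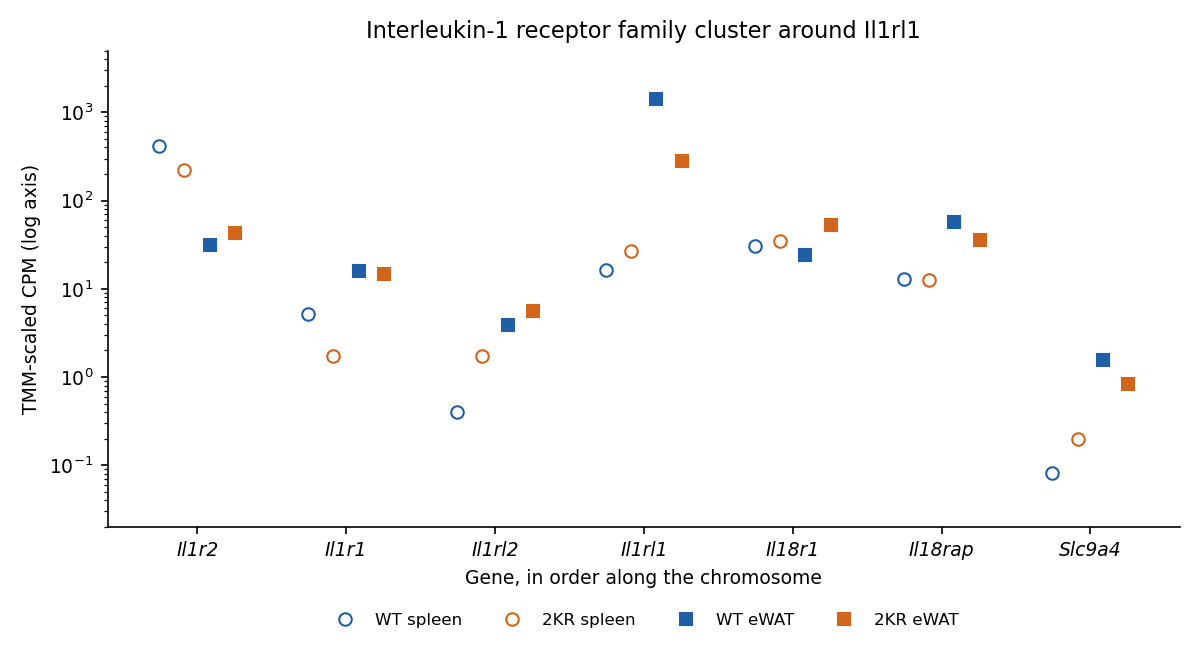
TMM-scaled CPM (log axis) of Il1rl1 and the 3 genes on each side of it, in order along chromosome 1, spleen as open circles and eWAT as filled squares, WT in blue and 2KR in orange. CPM is not scaled for length, so each gene is to be read across its own 4 libraries. Il1r2 is highest in WT spleen (417.6), Il1rl1 in WT eWAT (1431) and Il18r1 in 2KR eWAT (52.3).

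The genes whose 4 values were most like those of Il1rl1 were found by the root mean square difference of log2 CPM, each gene centred on its own mean. Among 7405 genes at 20 CPM or more in WT eWAT, the closest was Lmna, which encodes the nuclear lamins A and C, at 13.8, 17.8, 897.9 and 238.1 CPM in spleen of WT and 2KR and then in eWAT of WT and 2KR (difference 0.20). Next came Mmp25, a membrane-anchored metalloproteinase, with 0.485, 1.44, 64.0 and 10.8 CPM (0.24), and Cxcl2, a neutrophil chemokine, with 6.63, 5.58, 528.5 and 90.2 CPM (0.36). Then followed Gpx3 (0.41), Cxcr6 (0.41), Lgals3 (0.43), Ltb4r1 (0.44) and Dusp8 (0.44). The likeness is over 4 libraries only.

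Around the 9 genes, the lists of the pathway were read in turn, each beside the 33.7% of all genes tested that were higher in eWAT and the 23.2% that were lower. Of 7 further receptors of the IL-1 family tested, 4 were higher in eWAT (Il1r1, Il1rl2, Il18rap and Il1rapl2), 2 were lower (Il1r2 and Sigirr) and 1 did not pass. At 7 genes these counts are too small to be read against the shares of all genes, and no test of them was run. Sigirr, an inhibitory receptor of the family, stood at 289.2, 251.3, 134.3 and 90.4 CPM and had a log2 fold change of −1.27. Only 2 receptors were higher without WT spleen or without 2KR eWAT. Of 6 ligands and antagonists tested, 2 were higher (Il1a and Il1b), 1 was lower (Il18bp) and 3 did not pass. Il1b, the inflammatory cytokine IL-1 beta, stood at 2.51, 0.459, 266.7 and 505.0 CPM and was higher in eWAT by 8.08 (SE 0.52, edgeR adjusted p = 6.8e-08), beside the macrophage and dendritic cell sums given above. The part of those cells in the Il1b level was not tested. Il18bp, the binding protein of IL-18, stood at 12.3, 10.2, 4.81 and 5.32 CPM and had a log2 fold change of −1.15, a call lost without WT spleen and with counts scaled by library total alone.

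Among the signalling genes below the receptor most did not pass. Of 19 proximal adaptors, kinases and ubiquitin enzymes beyond the 9 genes, 1 was higher, 6 were lower and 12 did not pass, with a median log2 fold change of −0.13, where 33.7% of all genes were higher and 23.2% lower. The higher one was Tifa, an adaptor of TRAF6, at 0.970, 1.57, 14.4 and 27.1 CPM (log2 4.0, edgeR adjusted p = 1.52e-05). Among the lower ones were Tab1, a partner of TAK1 (49.0, 30.6, 18.4 and 11.7 CPM, log2 −1.40), and Rnf31 and Rbck1 (log2 −1.22 each), which with Sharpin (−0.54) form the linear ubiquitin ligase. The number of lower genes was 3 without WT spleen. Irak3, the inhibitory IRAK, stood at 22, 29.0, 44.9 and 25.4 CPM, with a genotype log2 ratio of −0.81 in fat and 0.40 in spleen. Of 15 genes of the IKK and MAP kinase arm, 3 were higher (Map3k8, Map2k6 and Map2k3), 2 were lower (Mapk9 and Ikbkg) and 10 did not pass, and neither count stands above the share over all genes. Both lower calls were lost without either spleen library, and without WT eWAT 7 genes were lower. Map3k8, a kinase that NF-kB1 holds inactive, stood at 50.9, 54.8, 194.0 and 118.7 CPM (log2 1.56).

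Feedback inhibitors held some of the highest CPM values in the pathway lists, and CPM is not scaled for transcript length. Of 10 tested, 5 were higher in eWAT (Tnfaip3, Dusp10, Zc3h12a, Nfkbia and Dusp1), 2 were lower (Tnip1 and Socs1) and 3 did not pass, where 33.7% of all genes were higher and 23.2% lower. Tnfaip3, which encodes the ubiquitin-editing enzyme A20, stood at 310.7, 359.7, 7150 and 3587 CPM and was higher by 4.0 (SE 0.40, edgeR adjusted p = 4.29e-06). Nfkbia, the NF-kB inhibitor IkB alpha, stood at 1224, 1039, 4175 and 2021 CPM (log2 1.45). In fat both were lower in 2KR than in WT, with log2 ratios of −1.0 and −1.05, and Zc3h12a, an RNA-degrading enzyme, stood at −1.15. The median ratio of the list was −0.64 in fat and −0.06 in spleen. The number of higher genes was 3 without WT spleen and 3 without 2KR spleen.

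Of 10 factors known to act on ST2 expression, 6 were higher (Pparg, Id2, Rbpj, Irf4, Gata3 and Prdm1), 2 were lower (Bach2 and Batf) and 2 did not pass, where 33.7% of all genes were higher. The number of higher genes was 4 without 2KR spleen, 5 without WT spleen and 5 without WT eWAT. Gata3, the factor of type 2 immunity, stood at 209.2, 224.6, 683.6 and 286.3 CPM (log2 1.16, edgeR adjusted p = 0.00762). Gata3 was lower in 2KR than in WT fat by a log2 ratio of −1.26 and differed by 0.10 in spleen. Batf, an AP-1 partner factor, stood at 287.1, 201.0, 139.2 and 117.7 CPM and was lower in fat (log2 −0.93). Bach2, a repressor of effector genes, stood at 97.7, 99.5, 22.8 and 44.6 CPM, and had a genotype log2 ratio of 0.96 in fat. The median genotype ratio of the list in fat was −0.37.

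Of 14 genes known to respond to IL-33 in Treg or type 2 lymphocytes, 10 were higher in eWAT, where 33.7% of all genes tested were, 1 was lower (Penk) and 3 did not pass, with a median log2 fold change of 2.48 against 0.11 over all genes. With all 4 libraries in the fit, 10 or 11 were higher under the alternatives. Areg, the growth factor amphiregulin, stood at 11.8, 10.8, 2072 and 387.5 CPM (log2 6.77, edgeR adjusted p = 2.63e-06), and Ccr2, a chemokine receptor, at 24.4, 31.9, 1589 and 675.7 CPM (log2 5.33). Il5, the eosinophil cytokine, stood at 0.242, 0.984, 28.9 and 17.6 CPM (log2 5.16), and Cxcr6 at 20.8, 22.7, 954.8 and 165.9 CPM (log2 4.69).

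In fat, 7 of these 14 response genes had a genotype log2 ratio of −1 or lower, where 2.32% of all genes did, and none was at 1 or higher. The list was chosen with earlier results of these data known. Its counts and medians, here and between tissues, are thus a description and no independent evidence. Cxcr6 stood at −2.52, Areg at −2.42 and Klrg1, a receptor of differentiated lymphocytes, at −1.45. The median was −1.02 in fat and −0.06 in spleen. Rel, an NF-kB subunit, went the other way, at 35.4, 28.3, 116.8 and 174.8 CPM with a ratio of 0.58 in fat. Tnfrsf9 and Icos, receptors of the activated T cell, stood at 0.06 and 0.49 in fat. Several of these genes are also expressed by innate lymphoid cells, whose marker sum is given above.

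**Figure D5:**
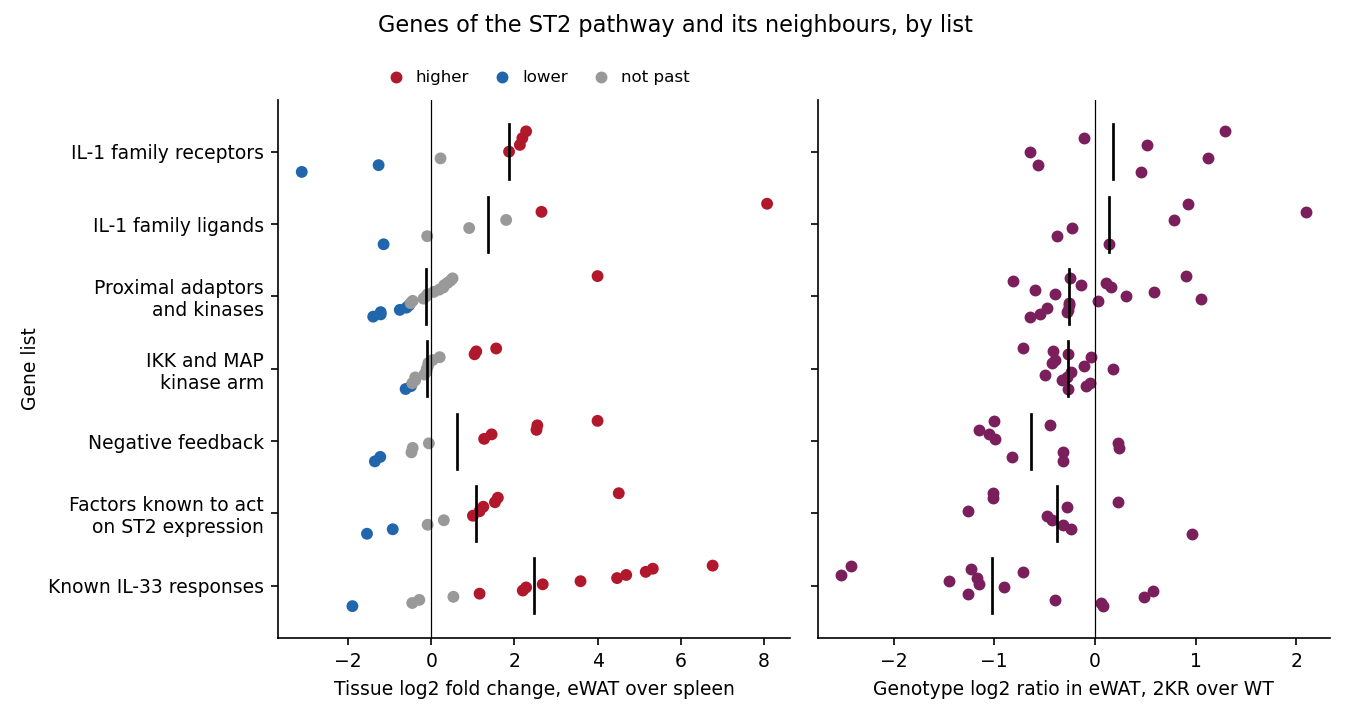
Each point is a gene of the pathway lists, with the tissue log2 fold change (left, eWAT over spleen, red higher, blue lower and grey not past the threshold) and the genotype log2 ratio in eWAT (right, 2KR over WT, no test). Black lines are list medians, on the right over the genes at 5 CPM or more. The known IL-33 responses have medians of 2.48 on the left and −1.02 on the right, and the proximal adaptors and kinases −0.13 and −0.26. The lists were chosen with earlier results of these data known.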

How the data were processed

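Groups were taken from the sample labels. The deposited read counts, whole numbers per gene symbol, were made by the authors without scaling. The deposited FPKM, per gene and per transcript with 95% intervals, are the authors' Cufflinks 2.0.2 estimates, and the transcript lengths come from the same tables. Per the deposited readme, bcl2fastq 1.8.4 wrote 100-base reads and TopHat 2.1.0 placed them on mm9 (4 mismatches, up to 10 multiple hits). The labels also list mm8. The tool and strand setting of the counting were not given in the sources used here. Reads where Il1rl1 and Il18r1 adjoin could therefore be assigned to either.

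The counts summed to 13250590 and 15993889 in spleen (WT, 2KR) and to 11186660 and 8315569 in eWAT (WT, 2KR), with TMM factors of 0.934, 0.953, 0.968 and 1.16. A count of 0 allows up to 0.242, 0.197, 0.277 and 0.313 CPM (3 reads). The tissue effect (2 eWAT against 2 spleen libraries) and a genotype effect common to both tissues (tissue as a term, 1 residual degree of freedom) were tested with edgeR 4.0.16 in R 4.3.3, over 16488 genes. The p-values were adjusted by Benjamini-Hochberg, and 0.05 was the threshold. An exact permutation test of 2 against 2 libraries could not give a p below 0.333. Genotype ratios within a tissue compare TMM-scaled CPM on the log2 scale, with 2 as the prior count. Their exact conditional binomial 95% intervals cover counting error only, since reads without molecular identifiers are not independent molecules. Intervals of a difference of 2 ratios are built from the same counts.

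Alternatives used DESeq2 1.42.0, limma 3.58.1 on log2(FPKM + 1) and log2(FPKM + 0.1), other scalings, no filter, and each library left out. On simulated data the tissue test recovered 30 of 100 genes with a log2 change of 1, and all 100 with a log2 change of 2, with 10 false calls among 15899 genes. The genotype test recovered 42 and 100, with 9 false calls among 15915. The simulation used the same dispersion for every gene, few changed genes and no effect of the other factor. Its rates may therefore not hold for these libraries. Sequences came from RefSeq (GRCm38.p6 promoters, all 9 genes matched) and from the GRCm38 genome with GENCODE annotation. Figures were drawn with matplotlib 3.10.9, and other steps used Python 3.11.15, numpy 2.4.6, pandas 2.3.3 and scipy 1.17.1.

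The 9 genes, the 7 pathway lists and the 10 marker lists were chosen with earlier results of these data known, so their direction is no independent evidence. Named beyond the 9 genes were Foxp3, Pparg, up to 4 called genes per direction and up to 3 by genotype ratio in eWAT from each pathway list, the 8 genes most like Il1rl1 and 3 neighbours on each side. Named outside that rule, after their values were seen, were the markers Nmur1, Calca, Il9r, Arg1, Hs3st1, Il17rb, Kit, Il13, Mcpt4, Dcn, Il2ra, Pecam1, Lyz2 and H2-Ab1. Sharpin, Dusp1, Prdm1, Rel, Tnfrsf9 and Icos were also named outside it. Gata3 stands in 2 of the pathway lists.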

Additional observations from a re-analysis of the deposited data

Results flagged for a closer look

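In 8 genes the genotype ratio had opposite signs in fat and spleen, with both counting intervals excluding 0. With 1 library per group the difference between tissues was not tested. Of the 9 genes of the pathway there were 2. Il1rl1 had a log2 ratio of −2.36 in fat and 0.71 in spleen, a difference of −3.07, and Irak4 had −0.58 and 0.20, a difference of −0.77. Of the 14 response genes at 5 CPM or more there were 6. The ratio in fat minus that in spleen was −1.62 for Ccr2, −1.36 for Gata3, −2.20 for Il5 (3 and 15 reads in WT and 2KR spleen), −1.82 for Klrg1, 0.90 for Rel and 0.30 for Tnfrsf9. Over all pathway lists 19 of the 76 genes at 5 CPM or more showed such a pair of signs, as did 1707 of all 12364 genes at that level (13.8%). The lists were chosen with these data known, so these counts are a description.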

How the results depend on the processing

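The tissue difference of Il1rl1 was 5.26 with RLE size factors and with DESeq2, 5.37 under total count scaling, 5.23 without a filter and 4.84 and 5.13 in the limma fits (adjusted p = 0.00145 and 0.00127), and passed in each. With a library left out it ran from 3.56 to 5.95, in fits where a tissue with 1 library is assumed to vary like the other and whose p-values say nothing of stability. In fat its genotype log2 ratio was −2.10 under total count scaling, −2.05 in deposited FPKM, −1.83 per Foxp3 read and −1.96 per read of 6 T cell genes. In spleen it ran from 0.71 to 0.91. Of the 9 genes, 3 were higher under total count scaling and in the limma fit on log2(FPKM + 0.1), where Irak2 joined. None was lower under total count scaling or in either limma fit, and between 0 and 3 were lower with a library left out. Irak1, Irak4 and Map3k7 were lower without WT eWAT. Over all genes, 2724 and 2705 were higher in the limma fits with pseudocounts of 1 and 0.1, against 5555. With a library left out the higher genes numbered 3403 to 5491 and the lower genes 1909 to 5278.

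Genes with a common genotype effect numbered 0 higher and 11 lower. The numbers were 1 higher with RLE size factors, 10 higher under total count scaling, 9 higher and 42 lower without a filter, 3 lower with DESeq2, 2 higher and 2 lower in limma with pseudocount 1, and 2 higher and 3 lower with 0.1. None of the 9 genes passed in any of these. Irak1 turned sign in fat to 0.10 (total count scaling), 0.09 (FPKM), 0.37 (per Foxp3 read) and 0.24 (per T cell gene read), and in spleen to 0.03 and 0.11 on the last 2 scales. Irak2 turned in fat to 0.22 and 0.08 on those 2 scales. The soluble share of Il1rl1 weighted by length was 7.84% in WT and 14.5% in 2KR fat. Where not stated, the cause of a change was not tested. No paired analysis was possible because the labels carry no replicate numbers and each group has 1 library. With genotype as a further term the tissue difference of Il1rl1 was 4.88 (adjusted p = 9.03e-08). At 3 and 4 reads, depth limits any statement on Il33 in spleen.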
